A study of Mus musculus with 186 samples.

Results

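Basement membrane genes were followed in lung and back skin of mice injected with bleomycin. The set held 33 genes, named by symbol as structural components of the basement membrane or as proteins bound to it, among 22095 gene identifiers in the deposited count table. All 33 were found and all passed the filter on low counts in each fit. They comprised the 6 collagen IV chains (Col4a1 to Col4a6), 10 laminin chains (Lama1 to Lama5, Lamb1 to Lamb3, Lamc1 and Lamc3), the nidogens Nid1 and Nid2, the heparan sulfate proteoglycans Hspg2 (perlecan) and Agrn (agrin), and the multiplexin collagens Col15a1 and Col18a1. The remaining 11 were the anchoring collagens Col7a1 and Col17a1, the Fraser complex genes Fras1, Frem1 and Frem2, and Npnt, Egfl6, Smoc1, Smoc2, Pxdn and Dag1.

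A basement membrane is a thin sheet of matrix under epithelia and endothelia and around muscle fibres, fat cells and nerves. Laminin trimers of an alpha, a beta and a gamma chain polymerise on the cell surface, and a covalently crosslinked collagen IV network joins them through nidogen and heparan sulfate proteoglycans. In the lung the sheets of alveolar epithelium and capillary endothelium are fused over the gas exchange surface, and in the skin hemidesmosomes and collagen VII fibrils tie the epidermis to the dermis through the sheet between them.

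The samples came from female C57BL/6 mice of about 12 weeks, a model of scleroderma in which bleomycin, a DNA-damaging drug, is given under the back skin. The drug (10 mg/kg/day) or its carrier, phosphate-buffered saline (PBS), was injected into a marked area between the shoulder blades, 5 times per week for 2 weeks, so the skin was the injected site and the lung was reached through the body. Groups of both kinds were taken on days 7 and 14 without oral dosing, and on days 21, 28 and 42 after oral vehicle. Further bleomycin groups received SB525334, an inhibitor of the TGF-beta type I receptor ALK5, by mouth at 30 mpk from day 12 to day 27 and were taken on days 21 and 28. No group given SB525334 without bleomycin was used here, and injection stopped after the second week, so later days also hold recovery. Lung was the superior lobe and skin a punch biopsy, and total RNA was sequenced after removal of ribosomal RNA. Each tissue had 93 libraries in 12 groups of 7 to 9. The labels give each library its own sample but do not match lungs to skins of the same mouse.

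Total estimated counts, to the nearest 1000, ran between 14685000 and 43071000 per skin library (median 19677000) and between 4788000 and 38335000 per lung library (median 19802000), and no 2 libraries were identical. Markers fitted the tissue labels: the summed level of 5 alveolar type 2 markers was 48.9 to 654 CPM (counts per 1000000 of the library total) across skin groups and 6705 to 30210 CPM across lung groups. In lung, 18 libraries stood apart: 10 with over 4% of counts on ribosomal protein genes, 3 with over 1% on the repeat-derived transcript Gm10800, 4 with over 200 CPM of epidermal keratins and 1 with liver transcripts. In skin, 8 libraries held over 5000 CPM of skeletal muscle transcripts, and 2, of which 1 was among those 8, held over 100 CPM of the lung gene Sftpc. On day 28 the lung libraries that stood apart were 6 of 8 after SB525334, 4 of 7 after bleomycin with vehicle and 1 of 7 after PBS, so lung values of that day rest on mixed material. In these bulk libraries fewer cells of a type and less RNA per cell cannot be told apart.

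The 6 collagen IV genes lie in head-to-head pairs, which is shown first because the members of a pair were measured side by side in every library. Col4a1 and Col4a2 start 21 bp apart on chromosome 8, Col4a3 and Col4a4 72 bp apart on chromosome 1, and Col4a5 and Col4a6 on chromosome X start farther apart and are not shown. The windows below are RefSeq promoters of GRCm38.p6, with 250 bases before and 50 after the start, printed 5′ to 3′ on the strand of each gene. Capitals mark the 78 bases that the Col4a1 window (chr8:11312777-11313076, minus strand) and the Col4a2 window (chr8:11312555-11312854, plus strand) share as reverse complements. In the Col4a4 window (chr1:82586800-82587099, minus strand) capitals mark the 73 bases that reach from its start to that of Col4a3.
Col4a1: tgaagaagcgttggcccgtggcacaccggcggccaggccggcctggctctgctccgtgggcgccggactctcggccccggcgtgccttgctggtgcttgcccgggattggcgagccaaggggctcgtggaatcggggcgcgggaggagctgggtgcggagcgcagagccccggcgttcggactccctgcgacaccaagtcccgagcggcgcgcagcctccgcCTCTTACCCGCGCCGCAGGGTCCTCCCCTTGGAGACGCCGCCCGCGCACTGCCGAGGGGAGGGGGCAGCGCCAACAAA
Col4a2: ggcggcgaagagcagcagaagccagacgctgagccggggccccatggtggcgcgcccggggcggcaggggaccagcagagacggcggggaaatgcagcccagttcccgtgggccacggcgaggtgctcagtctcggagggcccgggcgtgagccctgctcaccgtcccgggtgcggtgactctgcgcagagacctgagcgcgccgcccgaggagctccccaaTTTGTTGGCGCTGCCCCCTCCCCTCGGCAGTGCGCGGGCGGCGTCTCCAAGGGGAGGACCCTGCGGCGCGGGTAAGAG
Col4a4: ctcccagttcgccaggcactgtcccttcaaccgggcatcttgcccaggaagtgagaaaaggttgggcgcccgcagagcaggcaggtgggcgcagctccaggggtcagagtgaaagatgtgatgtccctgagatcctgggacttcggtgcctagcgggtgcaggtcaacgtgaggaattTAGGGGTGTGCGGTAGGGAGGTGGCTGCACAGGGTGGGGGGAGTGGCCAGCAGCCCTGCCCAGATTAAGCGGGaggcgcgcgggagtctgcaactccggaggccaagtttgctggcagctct
A window was found for 23 of the 33 members. The GC box letters GGGCGG, on either strand, were in 16 of those 23 windows and in 35.7% of 32851 windows of the same length. The letters CCAAT, on either strand, were in 13 of the 23 and in 37.4% of all, and TATAAA in 1 (Col17a1) and in 13.6% of all. A match is a run of letters and not a measured site. The Col4a1 and Col4a2 windows hold both GGGCGG and CCAAT, and the Col4a4 window holds none of the 3 motifs.

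Over the 93 lung libraries the log2 ratio of Col4a1 to Col4a2 had an SD of 0.19, while log2 Col4a1 alone had an SD of 0.53 and log2 Col4a2 of 0.49. In skin the SD of that ratio was 0.12, against 0.40 for Col4a1 and 0.45 for Col4a2. The ratio of this pair thus varied less than either level. For Col4a3 and Col4a4 the SD of the log2 ratio was 0.13 in lung, against 0.30 and 0.33 for each gene alone. In skin it was 0.33, against 0.88 for Col4a3 and 0.96 for Col4a4. For Col4a5 and Col4a6, with starts farther apart, it was 0.29 in lung, close to the SD of each gene alone (0.28 and 0.30). In skin it was 0.35 for that pair, against 0.33 for Col4a5 and 0.51 for Col4a6. These are descriptions over libraries that share depth and composition, and carry no test.

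In PBS mice the tissues differed in which members were abundant. Levels per kilobase of exon (CPM per kb, 39 PBS libraries of each tissue, in the plot of levels by tissue) ranked Col17a1 first in skin, at 78.9 to 248 (median 184) in skin against 0.93 to 15.0 (median 1.48) in lung. Col17a1 encodes the hemidesmosome collagen of basal keratinocytes. Col4a1 ranked second in skin and first in lung, at 38.3 to 112 (median 64.2) in skin and 76.7 to 154 (median 118) in lung. Npnt, which encodes nephronectin, a ligand of integrin alpha8, ranked second in lung and 25th in skin, with medians of 5.44 in skin and 85.5 in lung. The alpha3 chain gene Col4a3, whose product forms the network of alveolar and glomerular membranes, was lowest of the 33 in skin (median 0.78) and 5th in lung (median 41.8). In edgeR's quasi-likelihood test 29 of 33 members differed between PBS skin and PBS lung, 15 higher and 14 lower in skin, where 84.9% of all genes tested differed (44.3% and 40.7%). The log2 difference, skin minus lung, was 6.19 ± 0.20 (SE) for Col17a1, 3.46 ± 0.12 for Col15a1, -5.62 ± 0.13 for Col4a3, -4.12 ± 0.10 for Col4a4 and -3.89 ± 0.08 for Npnt (largest adjusted p 5.54e-65). Lama4, Lamb1, Lamc1 and Fras1 did not pass the test.

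**Figure D1:**
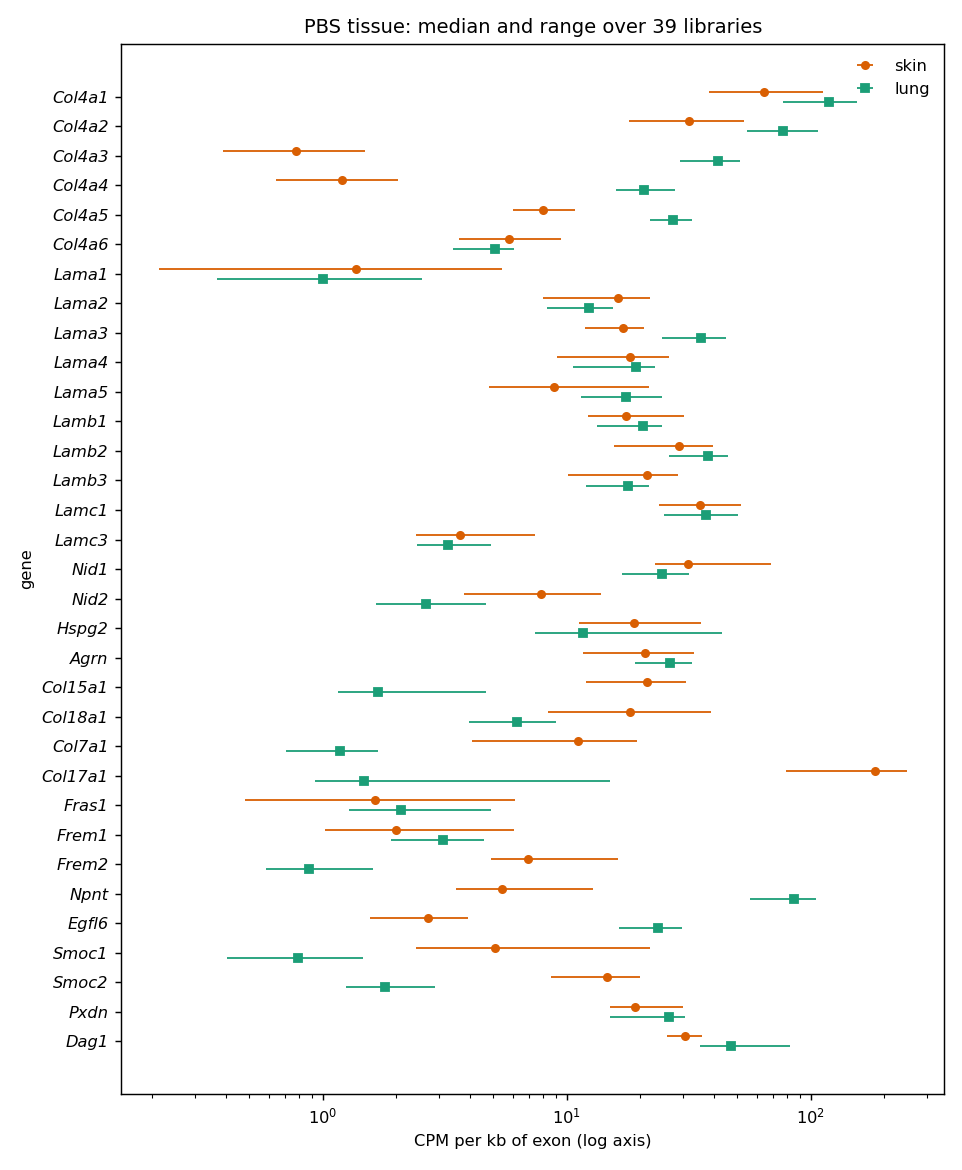
Level per kilobase of exon (CPM per kb, log axis) of the 33 members in PBS libraries, with the median and range over 39 skin libraries and 39 lung libraries. Col17a1 is highest in skin (median 184) and Col4a1 in lung (median 118), and Col4a3 and Npnt stand far higher in lung.

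PBS levels also differed between sampling days. Only the groups of days 21, 28 and 42 had oral vehicle, so day and vehicle cannot be told apart between them and the earlier groups. The 5 PBS groups differed over the days for 18 of 33 members in skin, near the share of 55.2% over all genes. In lung they differed for 9 of 33, where 21.7% of all genes did. Lama1, the laminin alpha chain best known from embryonic membranes, had a median of 26.0 CPM on day 7 and 29.1 CPM on day 14 in PBS skin, and 6.28, 10.5 and 9.43 CPM on days 21, 28 and 42 (adjusted p 7.97e-06). Each bleomycin group was therefore set against the PBS group of its own day. With terms for hair and skeletal muscle transcripts in the fit the skin count of 18 was 4, and with a term for the ribosomal protein share the lung count of 9 was 4.

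After bleomycin the lung called more falls than rises up to day 14 and more rises than falls from day 21. On day 7, 3 members rose and 14 fell, where 31.7% of all genes tested were called (13.9% upward and 17.8% downward). On day 14, 8 rose and 11 fell, where 46.4% of all genes were called (21.0% and 25.4%). The balance then turned. On day 21, 13 rose and 4 fell, where 35.3% of all genes were called (15.9% and 19.4%). On day 28, 14 rose and 4 fell, where 38.1% were called (19.7% and 18.4%), and on day 42, 15 rose and 3 fell, where 19.4% were called (12.6% and 6.77%).

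In skin falls led until day 28. On day 7, 1 member rose and 21 fell, where 46.2% of all genes were called (25.5% upward and 20.7% downward). On day 14, 2 rose and 23 fell, where 59.6% were called (31.5% and 28.1%). The split was more even later. On day 21, 4 rose and 10 fell, where 41.2% were called (20.2% and 21.0%). On day 28, 10 rose and 12 fell, where 24.3% were called (12.7% and 11.6%), and on day 42, 7 rose and 5 fell, where 10.2% were called (5.28% and 4.96%).

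The median log2 change of the members in lung was -0.25, -0.10, 0.20, 0.25 and 0.28 on the 5 days, beside -0.02, -0.02, -0.03, 0.01 and 0.02 over all genes. In skin it was -0.49, -0.74, -0.15, -0.24 and -0.04, beside 0.02, 0.01, -0.03, -0.03 and -0.04 over all genes. Most members are long genes, Egfl6 (2704 bases of exon) and Smoc1 (3496) being the exceptions. Genes with at least 5000 bases of exon had medians of -0.12 to 0.01 in lung and -0.06 to -0.03 in skin.

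**Figure D2:**
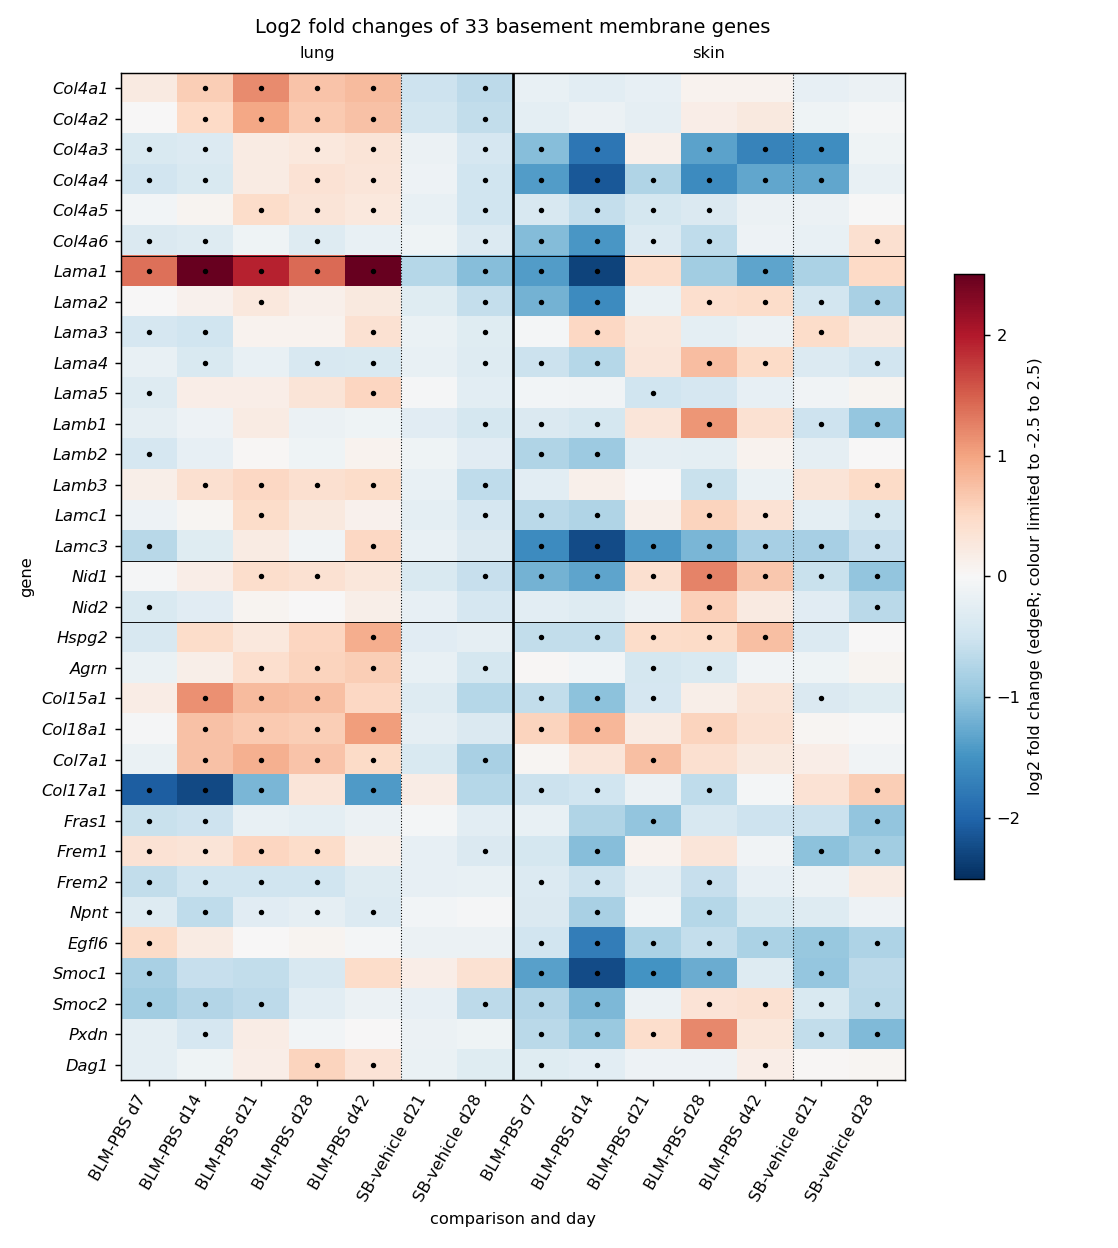
Log2 fold change of bleomycin over PBS by day, and of SB525334 over vehicle after bleomycin on days 21 and 28, for the 33 members in lung and skin, with calls at an adjusted p below 0.05 marked. Lung columns turn from mostly negative on day 7 to mostly positive from day 21, and skin columns are most negative on day 14.

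Over the 5 days together, 32 of 33 members differed in lung (Nid2 did not, adjusted p 0.054) and 31 of 33 in skin (Col4a1 and Col4a2 did not), where 69.8% of all genes differed in lung and 82.1% in skin. In lung 16 members were called upward only, 11 downward only, 5 in both directions on different days, and Lamb1 on no single day. In skin 4 members were called upward only, 18 downward only, 9 in both directions and 2 on no day. Such tallies by day were not made over all genes, so these counts only describe the members.

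The collagen IV pairs parted in lung. Col4a1 and Col4a2, the chains of nearly all basement membranes, rose on 4 of the 5 days. On day 21 Col4a1 had 1446 to 2502 CPM (median 2062) in bleomycin lungs, against 800.4 to 979 CPM (median 876) in PBS lungs. Every bleomycin library lay above every PBS library, and the log2 change was 1.18 ± 0.17 (adjusted p 3.47e-08). Col4a2 had 676 to 1393 CPM (median 1108) in bleomycin lungs, against 433 to 605 CPM (median 520.4) in PBS lungs, also without overlap, a log2 change of 0.97 ± 0.17 (adjusted p 3.47e-06). Both were also higher on day 42, Col4a1 by 0.79 ± 0.16 and Col4a2 by 0.73 ± 0.16 (adjusted p 0.00016 and 0.000423).

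Col4a3 and Col4a4, the chains of the alveolar network, fell early and rose late. On day 7 Col4a3 had 285 to 376 CPM (median 348) in bleomycin lungs, against 326 to 520 CPM (median 440.2) in PBS lungs, a log2 change of -0.38 ± 0.10 (adjusted p 0.00174). Col4a4 had 141 to 203 CPM (median 162) in bleomycin lungs, against 179 to 286 CPM (median 231) in PBS lungs, a log2 change of -0.47 ± 0.10 (adjusted p 6.72e-05). The ranges overlapped for both genes, although 5 of the 7 bleomycin libraries lay below all PBS libraries for Col4a4. On day 42 the direction had turned, to 0.32 ± 0.10 for Col4a3 and 0.31 ± 0.09 for Col4a4 (adjusted p 0.0102 and 0.00953). limma on the deposited log2 values did not call these day 42 gains (adjusted p 0.073 and 0.0541). Alveolar type 1 markers also moved: of 6, 1 rose and 1 fell on day 7, 1 rose and 3 fell on day 14 and 2 fell on day 42. Their sum on day 14 was 2516 to 3254 CPM (median 2959) in bleomycin lungs, against 3130 to 4157 CPM (median 3935) in PBS lungs, and their part in the early falls of Col4a3, Col4a4, Lama3 and Npnt was not tested. The change between the effects of days 42 and 14 was itself called, at 0.67 ± 0.14 for Col4a3 and 0.68 ± 0.13 for Col4a4 (adjusted p 0.000255 and 0.000102).

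Col4a5, the partner of the alpha3 and alpha4 chains in the network, rose on days 21, 28 and 42. On day 21 it had 228 to 276 CPM (median 258) in bleomycin lungs, against 170.1 to 217 CPM (median 182) in PBS lungs, without overlap, a log2 change of 0.47 ± 0.10 (adjusted p 6.76e-05). The day 42 call of Col4a5 was lost in limma on the deposited log2 values and in the fit of the 2 groups alone. The day 28 call was also lost in the fit of the 2 groups alone. Col4a6, found with alpha5 in epidermal and smooth muscle membranes, fell on days 7, 14 and 28. The day 28 call was lost without libraries that stand apart, with the ribosomal protein term and in the fit of the 2 groups alone. On day 7 it had 26.4 to 34.96 CPM (median 30.1) in bleomycin lungs, against 32.9 to 45.7 CPM (median 40.5) in PBS lungs, a log2 change of -0.37 ± 0.10 (adjusted p 0.0037), and the ranges overlapped.

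Among laminins Lama1 gave the largest change of the set in lung and was called on all 5 days. On day 7 it had 11.7 to 32.8 CPM (median 20.5) in bleomycin lungs, against 5.71 to 10.5 CPM (median 8.24) in PBS lungs. On day 14 bleomycin lungs had 15.1 to 63.0 CPM (median 35.2) and PBS lungs 3.60 to 12.5 CPM (median 5.75), and on day 21 bleomycin lungs had 37.7 to 62.5 CPM (median 52.4) and PBS lungs 7.30 to 17.9 CPM (median 13.5). On day 42 bleomycin lungs had 33.01 to 107 CPM (median 54.1), against 9.36 to 13.1 CPM (median 10.1) in PBS lungs. On those 4 days no bleomycin library overlapped the PBS range. Log2 changes were 1.38 ± 0.30, 2.52 ± 0.30, 1.92 ± 0.30, 1.41 ± 0.31 and 2.51 ± 0.30 on days 7, 14, 21, 28 and 42 (largest adjusted p 0.000366). On day 28 the ranges overlapped, with 8.22 to 74.2 CPM (median 28.7) in bleomycin lungs and 7.42 to 24.3 CPM (median 11.3) in PBS lungs. A fit of those 2 groups alone did not call that day (adjusted p 0.107).

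**Figure D3:**
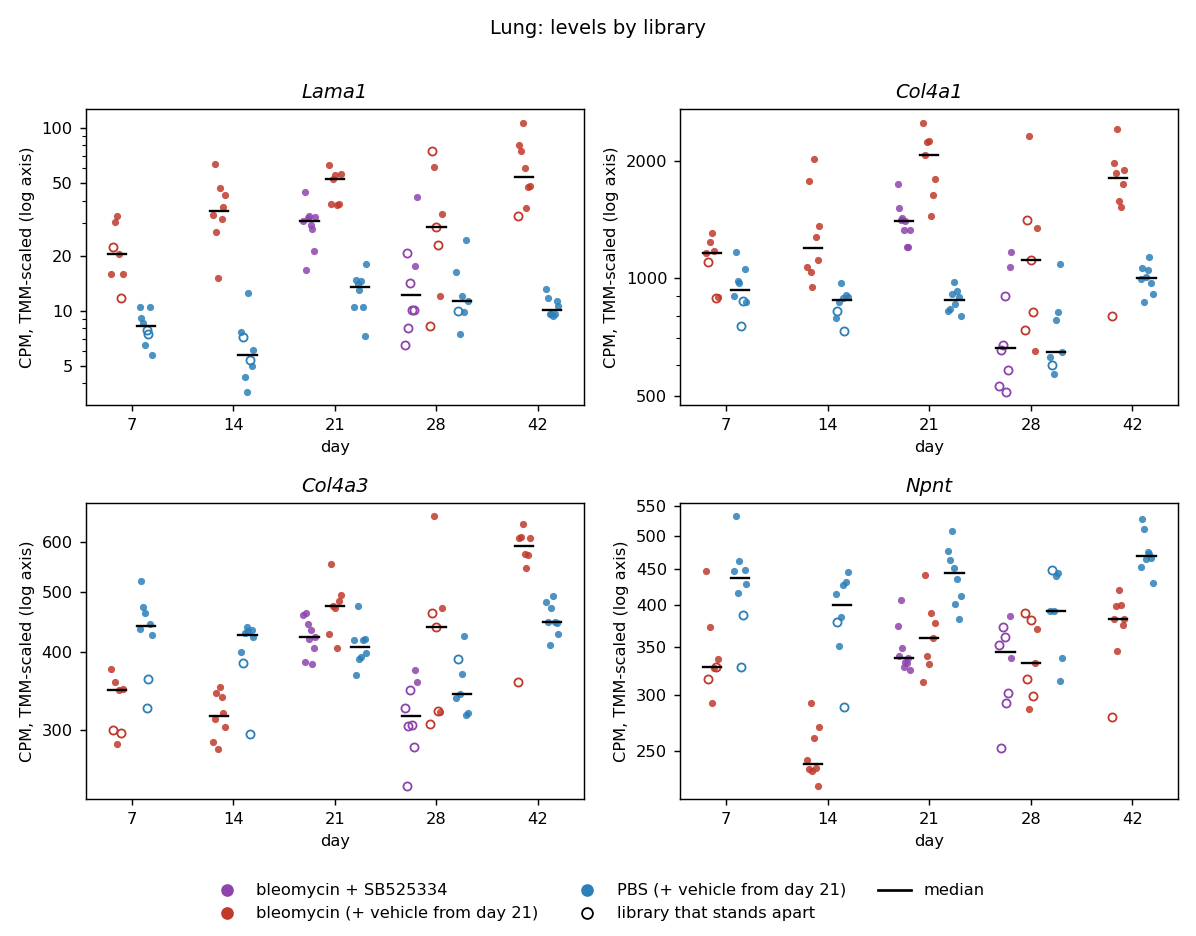
CPM (log axis) of Lama1, Col4a1, Col4a3 and Npnt in each lung library by day, for SB525334 (days 21 and 28), bleomycin and PBS groups, with group medians as bars and libraries that stand apart as open circles. By median Lama1 and Col4a1 lie above PBS after bleomycin, Col4a3 lies below PBS on days 7 and 14 and above it later, and Npnt lies below PBS on all 5 days.

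The other laminin alpha chains moved less. Lama3, the alpha chain of the epithelial adhesion laminin, had 201 to 295 CPM (median 257) in bleomycin lungs on day 14, against 269.8 to 402 CPM (median 377) in PBS lungs, a log2 change of -0.50 ± 0.10 (adjusted p 2.33e-05). By day 42 its change was 0.37 ± 0.10 (adjusted p 0.00335), which a fit of those 2 groups alone did not call (adjusted p 0.073). Lama4, the alpha chain of endothelial and muscle membranes, had 109 to 215 CPM (median 199) in bleomycin lungs on day 42, against 226 to 268 CPM (median 243) in PBS lungs. These ranges did not overlap, with a log2 change of -0.38 ± 0.10 (adjusted p 0.00338). Endothelial markers moved on the same days: of 7, none rose and 6 fell on day 14, 4 on day 28 and 3 on day 42, and their summed level on day 42 was 1894 to 3327 CPM (median 3012) in bleomycin lungs against 2871 to 3753 CPM (median 3631) in PBS lungs. Their part in the result was not tested. Lama5, the broad epithelial and endothelial alpha chain, fell on day 7 by 0.33 ± 0.13 (adjusted p 0.0488) and rose on day 42 by 0.55 ± 0.13 (adjusted p 0.000787). The day 7 call was lost in 6 of the alternative fits, among them that without libraries that stand apart (-0.23, adjusted p 0.205). Lama2, the alpha chain of muscle and nerve membranes, passed the test on day 21 alone, at 0.26 ± 0.10 (adjusted p 0.0308), and not without the plate term (adjusted p 0.0873).

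Of the beta and gamma chains, Lamb3, the beta chain paired with alpha3, rose on 4 days. On day 21 it had 148 to 198 CPM (median 169) in bleomycin lungs, against 106 to 134 CPM (median 118) in PBS lungs, without overlap, a log2 change of 0.51 ± 0.11 (adjusted p 9.16e-05). Lamc1, the common gamma chain, rose on day 21, with 352 to 451 CPM (median 403) in bleomycin lungs against 257 to 326 CPM (median 309.9) in PBS lungs, 0.46 ± 0.11 on the log2 scale (adjusted p 0.00062). Lamc3, a minor gamma chain, fell by 0.69 ± 0.16 on day 7 (adjusted p 0.00038) and rose by 0.52 ± 0.15 on day 42 (adjusted p 0.00636). Lamb2, the beta chain of synaptic and vascular membranes, fell on day 7 by 0.41 ± 0.12 (adjusted p 0.00449).

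Of the linkers and proteoglycans, Nid1, Agrn and Hspg2 rose in lung. Nid1, which bridges laminin and collagen IV, had 165 to 267 CPM (median 249) in bleomycin lungs on day 21, against 159 to 184 CPM (median 172) in PBS lungs, a log2 change of 0.45 ± 0.12 (adjusted p 0.00183). All but 1 of the 7 bleomycin libraries exceeded the PBS range. Its relative Nid2 was called on day 7 alone, at -0.39 ± 0.15 (adjusted p 0.0321), and not without the libraries that stand apart (-0.19, adjusted p 0.326). Agrn, a heparan sulfate proteoglycan that binds laminin and dystroglycan, had 239.8 to 544 CPM (median 438) in bleomycin lungs on day 42, against 237 to 309 CPM (median 281) in PBS lungs, 0.61 ± 0.11 on the log2 scale (adjusted p 1.98e-05), and 7 of 8 libraries lay above the PBS range. Hspg2 rose on day 42 by 0.90 ± 0.23 (adjusted p 0.00169). Fibroblast markers moved on day 21, the day shown for Nid1 and Col4a1: of 5, 2 rose and 1 fell, and their sum was 2470 to 4007 CPM (median 3059) in bleomycin lungs, against 1822 to 2302 CPM (median 2025) in PBS lungs, without overlap. On day 42, 1 rose and 1 fell. Their part in the results was not tested.

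The multiplexins, whose C-terminal parts are released as endostatin-like fragments, also rose, Col15a1 on 3 and Col18a1 on 4 of the 5 days. Col15a1, of vascular and muscle membranes, had 15.7 to 42.3 CPM (median 21.1) in bleomycin lungs on day 14, against 8.20 to 25.8 CPM (median 9.51) in PBS lungs, a log2 change of 1.14 ± 0.25 (adjusted p 0.000107). The highest PBS value, 25.8 CPM, belonged to a library with epidermal keratins, and the next was 10.9 CPM. Col18a1 had 62.8 to 249 CPM (median 83.6) in bleomycin lungs on day 42, against 39.7 to 64.6 CPM (median 45.8) in PBS lungs, a log2 change of 1.04 ± 0.20 (adjusted p 5.00e-05). Its highest value, 249 CPM, was that of the library with liver transcripts, and the change was 0.73 without the libraries that stand apart (adjusted p 0.00168).

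Anchoring and epithelial adhesion genes diverged in lung. Col7a1, the anchoring fibril collagen, had 15.7 to 36.3 CPM (median 21.3) in bleomycin lungs on day 21, against 10.3 to 16.2 CPM (median 11.4) in PBS lungs, a log2 change of 0.89 ± 0.17 (adjusted p 2.74e-05), and 6 of 7 libraries exceeded the PBS range. Col17a1 had 2.05 to 5.86 CPM (median 3.71) in bleomycin lungs on day 14, against 6.68 to 83.7 CPM (median 8.44) in PBS lungs, without overlap. Its log2 change was -2.25 ± 0.43 (adjusted p 1.17e-05), and the value of 83.7 CPM came from the PBS library with epidermal keratins. Without libraries that stand apart the change was -1.12 on day 14 and -0.59 on day 7, where the fit of all libraries gave -2.06 ± 0.45. Basal keratinocyte markers fell with it, 4 of 4 on both days, and their sum on day 14 was 4.34 to 18.0 CPM (median 5.71) in bleomycin lungs against 4.00 to 682 CPM (median 11.9) in PBS lungs. Their part in the result was not tested.

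Fras1 and Frem2, parts of the Fraser complex that fastens epithelium to its sheet in development, fell. On day 7 Fras1 had 26.6 to 36.0 CPM (median 28.2) in bleomycin lungs, against 36.9 to 49.2 CPM (median 43.7) in PBS lungs, a log2 change of -0.56 ± 0.14 (adjusted p 0.000711), without overlap. Frem2 had 7.97 to 11.6 CPM (median 8.50) in bleomycin lungs, against 10.6 to 21.5 CPM (median 13.04) in PBS lungs, a log2 change of -0.61 ± 0.13 (adjusted p 0.000184), and the ranges overlapped, with 5 of 7 bleomycin libraries below all PBS libraries. Frem1, of the same complex, rose instead: on day 21 it had 54.3 to 69.7 CPM (median 58.9) in bleomycin lungs, against 35.3 to 52.1 CPM (median 41.3) in PBS lungs, without overlap, 0.55 ± 0.12 on the log2 scale (adjusted p 0.000154).

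Npnt was called lower on all 5 days. The day 28 call (-0.22 ± 0.09, adjusted p 0.0467) was lost in all 9 alternative fits, and the sign differed between plates. On day 14 it had 224 to 292 CPM (median 240.1) in bleomycin lungs, against 288 to 446 CPM (median 401) in PBS lungs, a log2 change of -0.64 ± 0.08 (adjusted p 8.07e-10), and 7 of 8 bleomycin libraries lay below all PBS libraries. Itga8, the integrin chain that binds its product, fell on the same day by 0.95 ± 0.13 (adjusted p 7.58e-09). Smoc2, a secreted calcium-binding protein, had 6.92 to 9.29 CPM (median 8.11) in bleomycin lungs on day 7, against 11.9 to 20.3 CPM (median 13.3) in PBS lungs, without overlap, a log2 change of -0.88 ± 0.17 (adjusted p 2.31e-05). Its relative Smoc1 was called on day 7 alone, at -0.81 ± 0.32 (adjusted p 0.0472), and not without the libraries that stand apart (-0.37, adjusted p 0.215). Egfl6, an epidermal growth factor repeat protein of hair and vessel membranes, rose by 0.48 ± 0.10 on day 7 (adjusted p 0.000121). Pxdn, the peroxidase that crosslinks collagen IV, fell on day 14 by 0.42 ± 0.11 (adjusted p 0.000802). Dag1, the laminin receptor dystroglycan, rose on day 28 by 0.56 ± 0.12 (adjusted p 0.000235), a call that a fit of the 2 groups alone did not give (adjusted p 0.143).

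Groups without any overlap were 3 members on day 7, 4 on day 14, 11 on day 21, none on day 28 and 4 on day 42, where 11.0, 15.8, 19.2, 0.23 and 4.89% of all genes had none. Libraries were made on 2 plates, and the difference had the same sign within each plate for all called members on days 7, 14, 21 and 42. On day 28 it did for 13 of 18, the exceptions being Col4a6, Col15a1, Col18a1, Frem2 and Npnt. In the fit of the day 28 groups alone, 0 members were called. Markers foreign to the lung were called higher that day, 5 of 5 for skeletal muscle and 3 of 4 for basal keratinocytes. The muscle sum was 4.65 to 2122 CPM (median 9.59) in bleomycin lungs, against 7.96 to 18.28 CPM (median 10.55) in PBS lungs. Its median was thus not higher, and the top value came from replicate 2 alone. The keratinocyte sum was 3.75 to 367 CPM (median 16.6) in bleomycin lungs, against 4.08 to 27.15 CPM (median 6.19) in PBS lungs. Their part in the result was not tested. For Col4a1 that day the log2 change was 0.71 ± 0.18 over both plates, 0.80 within the first (5 against 5 libraries) and 0.16 within the second (2 against 2).

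SB525334 gave no called member in lung on day 21 (0 of 33 in edgeR's test, where 0.403% of all genes were called), although 8 had an unadjusted p below 0.05. The members' median log2 change was -0.18, beside 0.01 over all genes. Col4a1 had 1202 to 1742 CPM (median 1404) after SB525334, against 1446 to 2502 CPM (median 2062) after vehicle, a log2 difference of -0.51 ± 0.16 (adjusted p 0.17), and the ranges overlapped. Nid1 differed by -0.39 ± 0.12 (adjusted p 0.114). Lama2, Lama4 and Lamb1 had no overlap between the groups, all lower after SB525334, where 0.518% of all genes had none. A fit of these 2 groups alone called 14 members downward, among them Col4a1 and Nid1 (adjusted p 0.00233 and 0.00539). The share of 0.403% belongs to the main fit, so the count of 14 has no matching share here. The fit without libraries that stand apart called 4 members, although none of those libraries belonged to these groups. That fit called 353 genes in all, where the main fit called 63.

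On day 28 SB525334 lungs had 18 members lower and 0 higher than vehicle lungs, where 8.37% of all genes were called (2.64% higher and 5.73% lower). Lama2 had 80.4 to 174 CPM (median 99.2) after SB525334, against 126 to 249.6 CPM (median 168) after vehicle, a log2 difference of -0.60 ± 0.10 (adjusted p 2.49e-05). Lamb3 had 75.5 to 129 CPM (median 94.5) after SB525334, against 107 to 213 CPM (median 139) after vehicle, -0.63 ± 0.11 on the log2 scale (adjusted p 7.53e-05). No member, and 0.102% of all genes, had groups without overlap. Col4a1 had 511 to 1163 CPM (median 663) after SB525334, against 652 to 2312 CPM (median 1115) after vehicle and 567 to 1086 CPM (median 646) after PBS, and differed from vehicle by -0.66 ± 0.17 (adjusted p 0.0085). Lama1 had 6.53 to 41.8 CPM (median 12.1) after SB525334, against 8.22 to 74.2 CPM (median 28.7) after vehicle, -1.07 ± 0.30 on the log2 scale (adjusted p 0.0165).

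These day 28 lung differences were mostly not called once the libraries that stand apart were left out. Ribosomal protein genes took 2.37 to 14.1% of counts (median 7.55%) after SB525334, against 2.25 to 10.6% (median 3.23%) after vehicle. A fit with that share as a term called 13 members, 12 of them among the 18, and lost Col4a2, Col4a6, Lama1, Lama3, Lama4 and Frem1. Without the libraries that stand apart 2 and 3 libraries remained in the SB525334 and vehicle groups, 2 members were called, and the differences were -0.23 for Lama2, -0.40 for Lamb3, -0.30 for Col4a1 and -0.16 for Lama1 (smallest adjusted p 0.0602). A fit of the 2 groups alone called 0. Within plates the sign agreed for 11 of the 18 members. For Col4a1 the difference was -0.89 within the first plate (6 against 5 libraries) and 0.25 within the second (2 against 2).

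**Figure D4:**
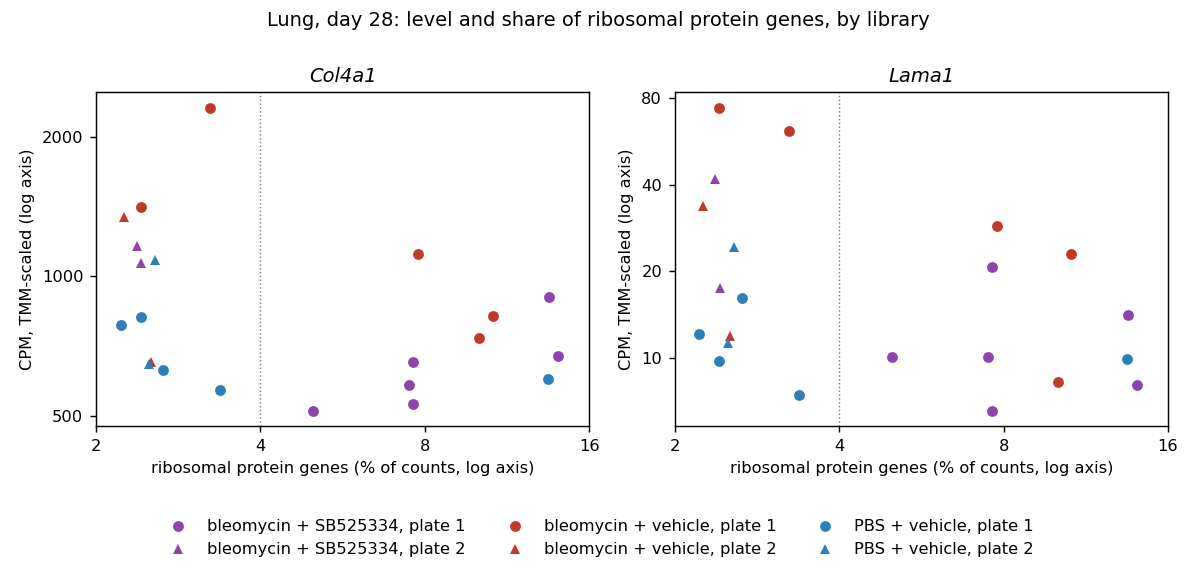
CPM (log axis) of Col4a1 and Lama1 in each day 28 lung library against the percentage of counts on ribosomal protein genes, by group and plate. The 6 SB525334 libraries above 4% had 511 to 901 CPM of Col4a1, and the 2 below it had 1068 and 1163 CPM.

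Skin lost much of the set during the injection weeks. On day 14 the groups did not overlap for 18 members, all lower after bleomycin, where 23.7% of all genes had no overlap, and on day 7 for 11, where 10.9% had none. Of the collagen IV chains, Col4a6 had 9.89 to 26.6 CPM (median 18.0) in bleomycin skin on day 14, against 40.5 to 73.8 CPM (median 48.0) in PBS skin, a log2 change of -1.46 ± 0.13 (adjusted p 4.25e-16). Col4a4 had 2.41 to 3.98 CPM (median 2.92) in bleomycin skin, against 9.40 to 15.9 CPM (median 13.2) in PBS skin, -2.11 ± 0.25 on the log2 scale (adjusted p 3.33e-11). Col4a3 had 1.47 to 3.01 CPM (median 2.72) in bleomycin skin, against 7.49 to 11.1 CPM (median 8.33) in PBS skin, -1.80 ± 0.31 on the log2 scale (adjusted p 5.24e-07). Col4a3 and Col4a4 were low genes in skin, and all 3 separated the groups fully. Col4a5 had 25.8 to 45.6 CPM (median 32.2) in bleomycin skin, against 43.1 to 65.0 CPM (median 51.3) in PBS skin, with slight overlap, -0.59 ± 0.09 on the log2 scale (adjusted p 8.70e-08). Col4a1 and Col4a2 passed the test on no day in skin, with changes of -0.26 ± 0.12 and -0.15 ± 0.13 on day 14.

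Of the 10 laminins 7 fell on day 14, 1 rose, and Lama5 and Lamb3 were not called. Lama2 had 71.1 to 108 CPM (median 84.3) in bleomycin skin, against 215 to 273 CPM (median 266) in PBS skin, a log2 change of -1.58 ± 0.14 (adjusted p 1.15e-15). Lamc3 had 2.30 to 8.24 CPM (median 3.90) in bleomycin skin, against 14.7 to 28.9 CPM (median 18.3) in PBS skin, -2.24 ± 0.21 on the log2 scale (adjusted p 3.74e-15). Lama1 had 3.15 to 9.41 CPM (median 6.29) in bleomycin skin, against 13.6 to 51.2 CPM (median 29.1) in PBS skin, -2.31 ± 0.43 on the log2 scale (adjusted p 3.23e-06). None of these 3 overlapped, nor did the next 3. Lamc1 had 149 to 219 CPM (median 169) in bleomycin skin, against 249.5 to 349 CPM (median 295) in PBS skin, -0.74 ± 0.10 on the log2 scale (adjusted p 2.90e-10). Lamb2 had 76.4 to 119 CPM (median 104) in bleomycin skin, against 144 to 234 CPM (median 195) in PBS skin, -0.91 ± 0.12 on the log2 scale (adjusted p 1.31e-09). Lama4 had 115 to 150.3 CPM (median 135) in bleomycin skin, against 194 to 252 CPM (median 226) in PBS skin, -0.72 ± 0.13 on the log2 scale (adjusted p 2.56e-06). The epithelial chain gene Lama3 rose instead, by 0.52 ± 0.12 (adjusted p 0.000257).

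Nid1 had 83.7 to 130.2 CPM (median 90.5) in bleomycin skin on day 14, against 174 to 348 CPM (median 236) in PBS skin, without overlap, a log2 change of -1.31 ± 0.16 (adjusted p 3.13e-11). On day 7 its change was -1.18 ± 0.16 (adjusted p 1.09e-08). Col15a1 had 32.4 to 70.1 CPM (median 53.4) in bleomycin skin on day 14, against 74.3 to 155 CPM (median 103) in PBS skin, -1.03 ± 0.13 on the log2 scale (adjusted p 1.70e-10). Its relative Col18a1 went the other way, with 133 to 212 CPM (median 183) in bleomycin skin, against 58.3 to 149.6 CPM (median 99.3) in PBS skin, a log2 change of 0.83 ± 0.17 (adjusted p 1.40e-05). For Col18a1 7 of 8 bleomycin libraries exceeded the PBS range, and it was also the 1 member that rose on day 7.

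The proteins around the core network fell as well. Egfl6 had 1.94 to 3.47 CPM (median 2.32) in bleomycin skin on day 14, against 6.41 to 10.5 CPM (median 8.13) in PBS skin, a log2 change of -1.73 ± 0.19 (adjusted p 1.99e-12). Smoc2 had 38.8 to 65.6 CPM (median 53.2) in bleomycin skin, against 102 to 129 CPM (median 113) in PBS skin, -1.13 ± 0.12 on the log2 scale (adjusted p 5.80e-13). Smoc1 had 1.41 to 8.598 CPM (median 2.80) in bleomycin skin, against 10.3 to 23.8 CPM (median 16.5) in PBS skin, -2.23 ± 0.32 on the log2 scale (adjusted p 7.27e-09). The 3 genes separated the groups fully. Frem1 had 7.25 to 16.6 CPM (median 10.8) in bleomycin skin, against 16.9 to 35.4 CPM (median 25.1) in PBS skin, -1.07 ± 0.25 on the log2 scale (adjusted p 0.000128). Frem2, a gene of hair follicle and epidermal membranes, had 51.0 to 77.3 CPM (median 63.9) in bleomycin skin, against 72.0 to 115 CPM (median 95.5) in PBS skin, -0.54 ± 0.14 on the log2 scale (adjusted p 0.000795). Npnt had 11.2 to 21.2 CPM (median 14.4) in bleomycin skin, against 21.5 to 36.2 CPM (median 24.8) in PBS skin, -0.81 ± 0.18 on the log2 scale (adjusted p 5.57e-05). Of these Frem2 alone overlapped. Pxdn fell by 0.92 ± 0.13 (adjusted p 1.19e-08). Dag1 had 132 to 161 CPM (median 154) in bleomycin skin on day 7, against 168 to 199.5 CPM (median 186.1) in PBS skin, without overlap, -0.30 ± 0.06 on the log2 scale (adjusted p 2.93e-05).

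Markers of several cell types moved on the same days. Of 5 fibroblast markers 4 fell on day 7 and 5 on day 14, and their sum on day 14 was 2491 to 5622 CPM (median 5007) in bleomycin skin against 9695 to 18300 CPM (median 10800) in PBS skin. Of 5 skeletal muscle markers 5 fell on day 7 and 3 on day 14, with a day 14 sum of 698 to 2042 CPM (median 926) in bleomycin skin against 1794 to 5654 CPM (median 3752) in PBS skin. All 4 adipocyte markers fell on day 14. Keratinocyte sums were higher that day without overlap, where Lama3 rose: the basal sum was 6026 to 13480 CPM (median 10480) in bleomycin skin against 5164 to 5793 CPM (median 5341) in PBS skin, with 2 of 4 markers up and 2 down. The suprabasal sum was 7276 to 10580 CPM (median 9075) in bleomycin skin against 3035 to 5351 CPM (median 3522) in PBS skin, with 2 of 4 up. Their part in the results was not tested. Called members had the same sign within both plates on days 7, 14, 28 and 42. On day 21, 13 of 14 did, Col4a6 being the exception. Its day 21 call was also lost without the plate term and in the fit of the 2 groups alone.

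**Figure D5:**
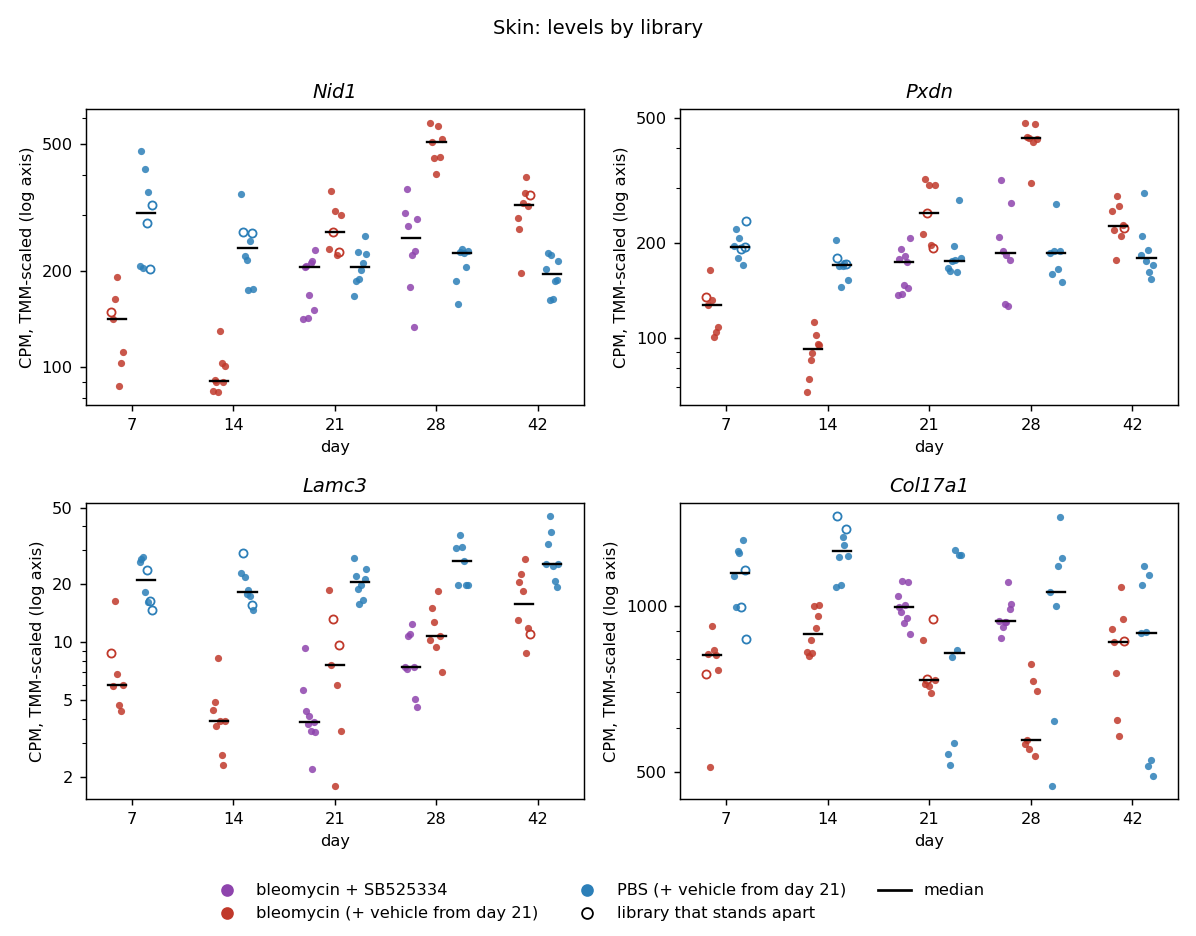
CPM (log axis) of Nid1, Pxdn, Lamc3 and Col17a1 in each skin library by day, for SB525334 (days 21 and 28), bleomycin and PBS groups, with group medians as bars and libraries that stand apart as open circles. By median Nid1 and Pxdn lie below PBS on days 7 and 14 and above it on day 28, where SB525334 lies near PBS, and Lamc3 lies below PBS on all 5 days.

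After the injections stopped the skin set split. On day 21, 4 members rose (Nid1, Hspg2, Col7a1 and Pxdn) and 10 fell. Col7a1 changed by 0.76 ± 0.21 (adjusted p 0.00237) and Nid1 by 0.40 ± 0.16 (adjusted p 0.0364). The Nid1 call was lost with no low count filter (adjusted p 0.0577), with muscle and hair terms (adjusted p 0.31) and in limma (adjusted p 0.0664). The Hspg2 call was lost in 4 alternative fits and that of Pxdn with muscle and hair terms. Among the falls were Agrn at -0.44 ± 0.09 (adjusted p 0.000113), Lama5 at -0.49 ± 0.17 (adjusted p 0.0144) and Fras1 at -0.98 ± 0.37 (adjusted p 0.0257), the Lama5 and Fras1 calls being lost in 3 and 2 alternative fits. A fit of the day 21 groups alone called 9 members. Col4a3 was not called at 0.13 ± 0.31, and its sign turned without the libraries that stand apart (-0.82, adjusted p 0.02). In the day 21 groups these were 2 bleomycin libraries with muscle transcripts, 1 of which also held Sftpc.

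On day 28 the gains were led by linkers and the crosslinking enzyme. Nid1 had 401 to 582 CPM (median 507) in bleomycin skin, against 158 to 235 CPM (median 228) in PBS skin, a log2 change of 1.24 ± 0.17 (adjusted p 9.01e-09). Pxdn had 310.0 to 483 CPM (median 430.4) in bleomycin skin, against 151 to 267 CPM (median 185.7) in PBS skin, 1.19 ± 0.14 on the log2 scale (adjusted p 3.69e-10). Lamb1, the common beta chain, had 342 to 469.5 CPM (median 421) in bleomycin skin, against 123 to 282 CPM (median 181) in PBS skin, 1.10 ± 0.16 on the log2 scale (adjusted p 6.69e-08). Lama4 had 275 to 367 CPM (median 318) in bleomycin skin, against 113 to 239 CPM (median 198) in PBS skin, 0.76 ± 0.14 on the log2 scale (adjusted p 1.63e-05). All 4 separated the groups fully, as did Lamc1 (0.56 ± 0.10, adjusted p 1.12e-05), so that 5 members lay above PBS and 4 below it without overlap, where 5.06% of all genes had none. The 4 below were Col4a3, Col4a4, Col4a6 and Lamc3. Nid2 (0.60 ± 0.16), Lama2 (0.41 ± 0.15) and Smoc2 (0.35 ± 0.13) also rose. The Lama2 call was lost with muscle and hair terms (0.22, adjusted p 0.239), and those of Lama2 and Smoc2 in a fit of the 2 groups alone (adjusted p 0.0788 and 0.107).

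Col17a1 and Lamb3 fell on the same day, while Lama3, Lama5 and Col7a1 were not called. Col17a1 had 534 to 784 CPM (median 572) in bleomycin skin, against 473 to 1448 CPM (median 1062) in PBS skin, with overlap, a log2 change of -0.64 ± 0.16 (adjusted p 0.00204), and limma did not call it (adjusted p 0.0514). Lamb3 changed by -0.55 ± 0.17 (adjusted p 0.00875). Of 4 basal keratinocyte markers 3 fell, with a sum of 3578 to 5340 CPM (median 4288) in bleomycin skin against 4175 to 7208 CPM (median 5656) in PBS skin. Of 5 fibroblast markers 3 rose, with a sum of 31790 to 40160 CPM (median 36700) in bleomycin skin against 6859 to 20660 CPM (median 10790) in PBS skin. Their part in the results was not tested.

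On day 42, 7 members were higher and 5 lower in bleomycin skin. Hspg2 had 287 to 555 CPM (median 425) in bleomycin skin, against 159.8 to 378 CPM (median 239.7) in PBS skin, a log2 change of 0.75 ± 0.16 (adjusted p 0.00117), and 6 of 8 libraries exceeded the PBS range. Nid1 changed by 0.67 ± 0.15 (adjusted p 0.00231). Col4a3, Col4a4 and Egfl6 lay below PBS without overlap, where 0.48% of all genes had none. A fit of the 2 groups alone called 7 members on that day.

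In skin SB525334 was set against vehicle after bleomycin. On day 21, 1 member was higher and 12 were lower than after vehicle, where 11.8% of all genes were called (5.81% higher and 6.02% lower). Frem1 had 8.05 to 20.6 CPM (median 13.4) after SB525334, against 26.6 to 38.8 CPM (median 29.7) after vehicle, a log2 difference of -1.03 ± 0.24 (adjusted p 0.00216). It was the 1 member without overlap, where 1.06% of all genes had none. Egfl6 had 1.01 to 4.27 CPM (median 2.07) after SB525334, against 1.85 to 5.98 CPM (median 4.47) after vehicle, -0.94 ± 0.19 on the log2 scale (adjusted p 0.000327). Pxdn differed by -0.61 ± 0.13 (adjusted p 0.00087), Nid1 by -0.56 ± 0.15 (adjusted p 0.00907) and Lamb1 by -0.52 ± 0.15 (adjusted p 0.012), the Lamb1 call being lost with muscle and hair terms (adjusted p 0.068). Lama3 was higher, at 193 to 519.8 CPM (median 233) after SB525334 against 159 to 332 CPM (median 179) after vehicle, 0.46 ± 0.13 on the log2 scale (adjusted p 0.00942).

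Without the 9 skin libraries that stand apart, 2 of which were in the day 21 vehicle group, 5 members were called on day 21. The calls of Col4a3, Col4a4, Lama2, Lama3, Lamc3, Col15a1, Smoc1 and Smoc2 were lost. The Col4a3 difference was then -0.62, beside -1.56 ± 0.31 in all libraries, and the Col4a4 difference -0.73, beside -1.30 ± 0.25. Set side by side with bleomycin over PBS, which shares the vehicle group, Nid1 and Pxdn were called higher with bleomycin and lower with SB525334, while Col4a4, Lamc3, Col15a1, Egfl6 and Smoc1 were called lower in both. Of 5 fibroblast markers 4 were lower after SB525334, with a sum of 6564 to 15500 CPM (median 11780) against 10660 to 24380 CPM (median 16540) after vehicle. The sum of 6 hair follicle markers was 5.35 to 325 CPM (median 14.3) after SB525334, against 24.1 to 2057 CPM (median 607) after vehicle. The part of both marker lists in the result was not tested.

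On day 28, 3 members were higher and 12 lower after SB525334, where 23.9% of all genes were called (12.2% higher and 11.6% lower), and the sign agreed within both plates for all 15. Pxdn had 126 to 317 CPM (median 186.2) after SB525334, against 310.0 to 483 CPM (median 430.4) after vehicle, a log2 difference of -1.09 ± 0.14 (adjusted p 3.85e-09). Nid1 had 134 to 360.2 CPM (median 254) after SB525334, against 401 to 582 CPM (median 507) after vehicle, -0.99 ± 0.16 on the log2 scale (adjusted p 2.31e-06). Lamb1 had 150.1 to 307 CPM (median 209.5) after SB525334, against 342 to 469.5 CPM (median 421) after vehicle, -0.96 ± 0.15 on the log2 scale (adjusted p 1.53e-06). The medians of these 3 after SB525334 were near those of PBS skin, at 185.7, 228 and 181 CPM.

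Lama2 had 135 to 226 CPM (median 195) after SB525334, against 282 to 367 CPM (median 345) after vehicle, -0.81 ± 0.15 on the log2 scale (adjusted p 1.78e-05). Smoc2 had 58.6 to 89.4 CPM (median 69.6) after SB525334, against 107 to 136 CPM (median 109.6) after vehicle, -0.68 ± 0.12 on the log2 scale (adjusted p 2.14e-05). Lamc1 had 215 to 372 CPM (median 313) after SB525334, against 374 to 466.3 CPM (median 422) after vehicle, -0.44 ± 0.10 on the log2 scale (adjusted p 0.000439). With Nid1, Lamb1 and Frem1 these 3 made 6 members below vehicle without overlap, where 5.92% of all genes had none. Nid2 had 27.9 to 58.1 CPM (median 44.2) after SB525334, against 48.0 to 89.4 CPM (median 69.9) after vehicle, -0.67 ± 0.16 on the log2 scale (adjusted p 0.000962). Lama4 differed by -0.48 ± 0.13 (adjusted p 0.00589).

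Col17a1 was higher, with 874 to 1103 CPM (median 938) after SB525334 against 534 to 784 CPM (median 572) after vehicle, without overlap, 0.61 ± 0.16 on the log2 scale (adjusted p 0.00341). Lamb3 (0.47 ± 0.16, adjusted p 0.0232) and Col4a6 (0.40 ± 0.13, adjusted p 0.0188) were higher too. With muscle and hair terms the calls of Col17a1 (0.32), Lamb3 (0.15), Col4a6 (0.33) and the lower member Fras1 (-0.17, beside -0.98 ± 0.36) were lost. Of 4 basal keratinocyte markers 1 was higher, with a sum of 4893 to 8047 CPM (median 5313) after SB525334 against 3578 to 5340 CPM (median 4288) after vehicle. The sum of 6 hair follicle markers was 46.2 to 3106 CPM (median 118.7) after SB525334, against 2272 to 6081 CPM (median 3444) after vehicle. In PBS skin of that day the hair follicle sum was 10.6 to 16540 CPM (median 481.6). The part of these markers in the result was not tested. The 2 comparisons share the vehicle group, so their values are only set side by side: of 10 members that rose with bleomycin on day 28, 8 were lower after SB525334 (Lama2, Lama4, Lamb1, Lamc1, Nid1, Nid2, Smoc2 and Pxdn), and Col4a6, Lamb3 and Col17a1, which fell with bleomycin, were higher. The share of all genes with such opposite calls was not computed, so these counts cannot be read as particular to the set. Lamc3 and Egfl6 were lower in both comparisons, the Lamc3 call after SB525334 being lost in 3 alternative fits, and 7 further members that fell with bleomycin were not called after SB525334. Of 5 fibroblast markers 4 were lower after SB525334, with a sum of 10590 to 27290 CPM (median 16020) against 31790 to 40160 CPM (median 36700) after vehicle, and their part in the result was not tested.

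The change of the bleomycin effect between days 14 and 42 was tested directly. In skin it was called for 20 of 33 members, 19 upward and 1 downward, where 50.9% of all genes were called (23.0% upward and 27.9% downward), and the members' median log2 change was 0.81 beside -0.04 over all genes. Lama2 gained 2.05 ± 0.20 (adjusted p 2.19e-13), Nid1 1.98 ± 0.22 (adjusted p 1.57e-11) and Smoc1 1.91 ± 0.43 (adjusted p 0.000163), while Lama3 dropped by 0.67 ± 0.18 (adjusted p 0.00107). In lung 7 members were called, all upward, where 15.3% of all genes were called (10.7% upward and 4.67% downward): Lama3 by 0.87 ± 0.14 (adjusted p 6.49e-06), Lamc3 by 0.83 ± 0.21 (adjusted p 0.00338), Col4a3, Col4a4, Agrn, Pxdn and Dag1. The last 3 were near the threshold (adjusted p 0.037, 0.0415 and 0.0452), and 3 of the alternative fits called 4 members, while the fit without libraries that stand apart called 12.

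The effect in skin was also tested against that in lung. That fit treated all libraries as independent, because the labels do not match lungs to skins of the same mouse. Any such pairing is therefore not reflected in its errors and adjusted p-values. On day 14 it differed for 20 members, 2 higher and 18 lower in skin, where 32.3% of all genes differed (15.6% higher and 16.7% lower). It differed for 13, 15, 17 and 14 members on days 7, 21, 28 and 42, where 16.6, 30.1, 26.0 and 12.1% did. Lama1 differed most, by -4.88 ± 0.53 on day 14 (adjusted p 2.59e-14) and -3.82 ± 0.52 on day 42 (adjusted p 4.74e-09), since it rose in lung and fell in skin. The call of its day 42 fall in skin was lost with muscle and hair terms, in limma and in the fit of the 2 groups alone. Col15a1 differed by -2.21 ± 0.28, Lama2 by -1.73 ± 0.17 and Nid1 by -1.52 ± 0.19 on day 14 (largest adjusted p 5.01e-11), and Lama3 by 0.97 ± 0.16 the other way (adjusted p 2.76e-07). On day 21 Col4a1 differed by -1.45 ± 0.22 and Col4a2 by -1.25 ± 0.22 (adjusted p 4.13e-08 and 2.90e-06). On day 28 Pxdn (1.23 ± 0.18), Lamb1 (1.21 ± 0.19) and Lama4 (1.14 ± 0.18) had the higher effect in skin (largest adjusted p 2.00e-07), and Col4a4 (-1.96 ± 0.27, adjusted p 4.45e-09) the lower. On day 42 Lama4 still differed by 0.87 ± 0.17 (adjusted p 3.54e-05).

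Genes that make, bind or cut the sheet moved around the set. Of 11 genes for assembly of collagen IV and laminin, 10 rose and none fell in skin on day 28, where 12.7% of all genes rose and 11.6% fell, led by Loxl2 (2.11 ± 0.21, adjusted p 1.05e-12), a crosslinking oxidase, Colgalt1 (0.71 ± 0.08, adjusted p 1.65e-10), a collagen galactosyltransferase, and P4ha2 (1.41 ± 0.18, adjusted p 1.31e-09), a prolyl hydroxylase subunit. After SB525334 8 of the 11 were lower on that day and none higher, where 11.6% of all genes were lower and 12.2% higher. In lung on day 21, 7 rose and 1 fell, where 15.9% and 19.4% of all genes did. Of 14 proteases and heparanase tested, 11 rose in lung on day 14 and none fell, where 21.0% of all genes rose and 25.4% fell, led by Ctss (2.13 ± 0.20), Mmp12 (4.36 ± 0.46) and Mmp2 (1.43 ± 0.16) (largest adjusted p 1.20e-11), while all 4 macrophage markers rose. In skin 10 rose on day 28 and none fell, and after SB525334 1 was higher and 5 lower, with the same shares of all genes as for assembly.

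On skin day 28, where 12.7% of all genes rose and 11.6% fell, 5 of 8 heparan sulfate enzymes rose, led by the polymerase Ext1 (0.68 ± 0.07, adjusted p 4.34e-13) and the endosulfatase Sulf1 (1.87 ± 0.24, adjusted p 2.35e-09), and 5 were lower and 1 higher after SB525334 (11.6% and 12.2% of all genes). Of 14 receptors 3 rose and 7 fell in skin on day 28: Itgb1, the shared integrin beta1 chain, rose (0.70 ± 0.09, adjusted p 1.51e-09), and Ddr1, a collagen receptor kinase (-0.68 ± 0.10, adjusted p 7.39e-08), Bcam, a laminin alpha5 receptor (-0.49 ± 0.09, adjusted p 3.10e-05), and Itgb4, the hemidesmosome integrin chain (-0.61 ± 0.15, adjusted p 0.00173), fell. Of 13 further sheet components tested, 1 rose and 7 fell in skin on day 14 (31.5% and 28.1% of all genes), and 4 rose and 1 fell on day 28, led by Matn2 (1.35 ± 0.13, adjusted p 7.15e-13), Sparc (1.73 ± 0.19, adjusted p 4.77e-11) and Fbln2 (1.45 ± 0.21, adjusted p 9.46e-08). After SB525334 6 of these 13 were lower on day 28 and none higher.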

How the data were processed

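RNA was measured by stranded total RNA sequencing after ribosomal RNA removal in 93 lung and 93 skin libraries, in 24 groups of 7 to 9, per the labels' protocols. Per the submitters' processing notes RSEM and edgeR were used with the GRCm38 genome. The aligner and the tool versions are not given in the sources used here. For this work the authors' deposited count table was read as RSEM expected counts, since 83.9% of its values were whole (within 1e-09) and its totals differed. The deposited log2 CPM table held 16160 expressed protein-coding genes and was named as corrected for plate, by a method not given in the sources used here. Gene names came from the GENCODE mouse annotation (release 21 of the M series, GRCm38), which matched 21852 of 22095 identifiers. Expected counts split reads between transcripts by estimate, so genes that share sequence are less certain.

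Expected counts were rounded to whole numbers. edgeR 4.0.16 in R 4.3.3 filtered low counts by group, scaled by TMM and fitted a quasi-likelihood model per tissue with 12 groups and a term for the 2 plates read from codes in the labels' descriptions, leaving 15647 genes in lung and 15825 in skin. A model of all 24 groups with a plate term per tissue (16585 genes) compared the tissues and treated all libraries as independent. Calls used an adjusted p (Benjamini-Hochberg, over all genes tested) below 0.05, and errors are standard errors of log2 fold changes. Levels are TMM-scaled CPM, and two-sided tests were used throughout. Median total counts were 19677000 in skin and 19802000 in lung. The labels give libraries of a group as separate samples. The spread between samples behind the p-values was estimated for each gene over all groups of a fit, not from the compared groups alone. The computation was tested on simulated data.

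Members with levels printed were those called on at least 3 of 5 days, called for SB525334 or changed between days 14 and 42, at the comparison of smallest p or one described in the text. Of other lists at most 3 called genes per direction were named. Members and lists were chosen with earlier results of these data known. Alternatives were RLE size factors, no low count filter, DESeq2 1.42.0, limma 3.58.1 on the deposited log2 values, no plate term, a replicate block and the 2 groups alone. Leaving out libraries that stand apart and adding composition terms (ribosomal protein share in lung, hair and skeletal muscle in skin) were chosen after seeing the data.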

Additional observations from a re-analysis of the deposited data

Results flagged for a closer look

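Single libraries lay far from the rest of their group, by the gap to the nearest value over the range, in 17 of 130 groups of levels. Chance flags about 1 in 20 groups. In lung they were Fras1 at 36.0 CPM in bleomycin replicate 3 of day 7 and, after bleomycin on day 42, Lama4 at 109 CPM and Col18a1 at 249 CPM in replicate 1, the library with liver transcripts. After SB525334 on day 28 Lama1 stood at 41.8 CPM in replicate 8. In PBS lungs they were Col15a1 at 25.8 CPM and Col17a1 at 83.7 CPM in replicate 6 of day 14, a library with epidermal keratins, Lama1 at 12.5 CPM in replicate 5 of day 14 and Col4a5 at 217 CPM in replicate 3 of day 21.

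In skin the outlying values were Dag1 at 132 CPM in bleomycin replicate 6 of day 7, and, on day 14, Lamc3 at 8.24 CPM in bleomycin replicate 4, Nid1 at 130.2 CPM in bleomycin replicate 5 and Col4a3 at 11.1 CPM in PBS replicate 8. On day 21 Egfl6 stood at 4.27 CPM in SB525334 replicate 5, and Lama3 at 519.8 CPM in SB525334 replicate 8 and at 332 CPM in vehicle replicate 4. On day 28 Pxdn stood at 310.0 CPM in bleomycin replicate 4 and at 267 CPM in PBS replicate 4. Causes were not tested.

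The bleomycin effect differed between days 42 and 14 in tests of the difference itself, for 7 members in lung and 20 in skin. In lung the log2 differences were 0.87 for Lama3, 0.83 for Lamc3, 0.68 for Col4a4, 0.67 for Col4a3, 0.46 for Agrn, 0.44 for Dag1 and 0.43 for Pxdn. In skin they were 2.05 for Lama2, 1.98 for Nid1, 1.91 for Smoc1 and -0.67 for Lama3.

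The effect in skin differed from that in lung for 13, 20, 15, 17 and 14 members on days 7, 14, 21, 28 and 42. The log2 difference on day 14 was -4.88 for Lama1, -2.21 for Col15a1, -1.73 for Lama2, -1.52 for Nid1 and 0.97 for Lama3. On day 21 it was -1.45 for Col4a1 and -1.25 for Col4a2. On day 28 it was 1.23 for Pxdn, 1.21 for Lamb1, 1.14 for Lama4 and -1.96 for Col4a4, and on day 42 -3.82 for Lama1 and 0.87 for Lama4.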

How the results depend on the processing

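Counts of called members moved by more than 1.5 times in these settings. Leaving out libraries that stand apart gave 4 members for SB525334 in lung on day 21 (0 in all libraries), 2 on day 28 (18), 5 in skin on day 21 (13), and 12 for the lung change between days 42 and 14 (7). That lung change gave 4 without a low count filter, 4 without the plate term and 4 with the replicate block. Composition terms gave 1 for SB525334 in lung on day 21, 4 for the PBS days in lung (9) and 4 in skin (18). Fits of the 2 groups alone gave 0 for bleomycin in lung on day 28 (18), 14 for SB525334 in lung on day 21, 0 on day 28, 9 for bleomycin in skin on day 21 (14) and 7 on day 42 (12). Calls over all genes also changed between settings, and these counts are given without a matching share. Col4a3 in skin on day 21 (0.13) turned to -0.82 without libraries that stand apart, -0.42 with composition terms, -0.37 in limma and -0.0703 with the 2 groups alone. The causes were not tested. Same-numbered libraries of the 2 compared groups were correlated within each tissue. In 0 of 14 comparisons did every such pair correlate above 0.1, 28 of 102 pairs did, and 15 of 102 correlated best with their own number. Lung and skin libraries of the same number were not correlated with each other, so this check says nothing on pairing between tissues. Of the 147 gene values tried, calls ended for 1 in DESeq2, 3 with RLE size factors and 6 with the replicate block. They ended for 7 without a low count filter, 8 without the plate term and 9 in limma. Composition terms ended 12 calls, and leaving out libraries that stand apart ended 15 and gave 2 new ones. Fits of the 2 groups alone, which covered fewer of the values, ended 19 and gave 2 new ones. Lung libraries of low depth (lowest total 4788000) and the 2 and 3 libraries left on day 28 limit precision for low genes.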
